A study of Urocitellus parryii with 44 samples.

Results

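The immune surface, cytokine and antigen presentation genes comprised 284 of the 38400 probes on 4 membranes of mouse cDNA, for 158 of the 11786 genes that had a probe of their own. A probe was included when its single gene symbol began with H2-, Ccl, Cxcl, Cxcr, Tlr, Ifi or Ifn, with Ccr, Il or Cd followed by a digit, or was B2m, Lcp1 or Lcp2. Cd36, Cd2ap and Cd2bp2 were left out, as were 18 probes that carried several symbols of which at least 1 fitted. The membranes, MA07, MA08, MA10 and MA11, held 30, 38, 77 and 139 of the 284 probes, which stand for 247 different clone entries. For 88 genes there was 1 probe and for 70 several. The RNA came from brown adipose tissue, the heat-producing fat, of 5 arctic ground squirrels in winter torpor and 3 squirrels that were active in August. Torpor is the phase of hibernation in which metabolism and body temperature are deeply lowered. No genotype, strain, drug, age or sex is given for either group, so the animals are described only by season and state. Season and state changed together, and the 2 cannot be told apart.

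Immune cells reside in brown fat beside the adipocytes. Major histocompatibility complex (MHC) proteins, named H2 in the mouse, display peptides to T cells, class I on nearly all cells and class II mainly on antigen-presenting cells. Chemokines attract leukocytes through their receptors, Toll-like receptors sense microbial molecules, and interferons and interleukins carry signals between cells. In hibernating mammals, circulating leukocytes are known to become scarce during torpor. RNA from whole tissue cannot tell fewer cells of a type from less RNA per cell.

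Values are log2 of spot intensity relative to the column median, so 0 is the level of the median probe of a membrane, and differences are torpor minus summer. A spot's signal percentile is its rank by mean signal among the probes of its membrane, and levels of different probes are not compared. Torpid animal 5 and summer animals 1 and 2 were measured in duplicate from split RNA, and the immune probes' median gap between duplicates was 0.36 in torpid animal 5, 0.42 in summer animal 1 and 0.46 in summer animal 2. Empty cells made up 3.17% of the immune probes' values and 3.45% of all values. The median signal percentile was 55.0 for the immune probes. The median standard error of a difference was 0.29 for immune probes and for all probes, a precision limited by the number of arrays, from 8 animals. Of the 158 symbols, 111 (70.3%) are names or synonyms that RefSeq also lists for the squirrel. Of 12 brown adipocyte markers, 6 were read on 10 probes (Cidea, Dio2, Elovl3, Lpl, Ppargc1a and Prdm16). Their signal percentiles ran from 7.23 for Dio2 to 86.0 for a Ppargc1a probe. These levels cannot check the tissue label, since no other tissue is among the samples. The uncoupling protein gene Ucp1, which defines the cell type, had no single-symbol probe here.

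None of the immune probes passed the test, and higher and lower values in torpor were balanced. With limma, 0 of the 281 immune probes that could be tested reached an adjusted p of 0.05, against 0.309% of all 37848 probes tested. The 3 others, 1 each of B2m, Cd24a and Il10ra, had too few values. The lowest adjusted p was 0.084, for the chemokine receptor Cxcr4. At an unadjusted p under 0.05, 21 immune probes (7.47%) were higher in torpor, where 6.39% of all probes were. Another 21 (7.47%) were lower, where 5.18% of all probes were. The lowest torpid animal lay above the highest summer animal for 15 immune probes (5.34%), against 4.37% of all probes. The highest torpid animal lay below the lowest summer animal for 12 (4.27%), against 4.13% of all probes. These shares lie near the background.

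The median difference over the 281 probes was -0.013, with 140 above 0, and the median over all probes was 0.00. The middle of the distribution ran from -0.33 to 0.24 (lower and upper quartiles), and the extremes were -1.45 for a dim Ifi35 probe and 2.22 for Cxcr4. A difference of at least 1 in either direction was found for 19 immune probes (6.76%) and for 4.71% of all probes. Animal by animal, the median level over the immune probes was between -0.037 and 0.077 in torpid animals and between -0.011 and 0.050 in summer animals. The ranges of the groups overlapped. By membrane, the immune median was lowest on MA10, at -0.097, while MA07, MA11 and MA08 gave 0.021, 0.030 and 0.032. The median over all MA10 probes was -0.007. MA10 was the least precise membrane, with a median standard error of 0.43 for immune probes, against 0.24 on MA07, 0.25 on MA08 and 0.27 on MA11. On MA10 the median immune level was 0.29 in torpid animal 1 and -0.18 to -0.08 in the other torpid animals.

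**Figure D1:**
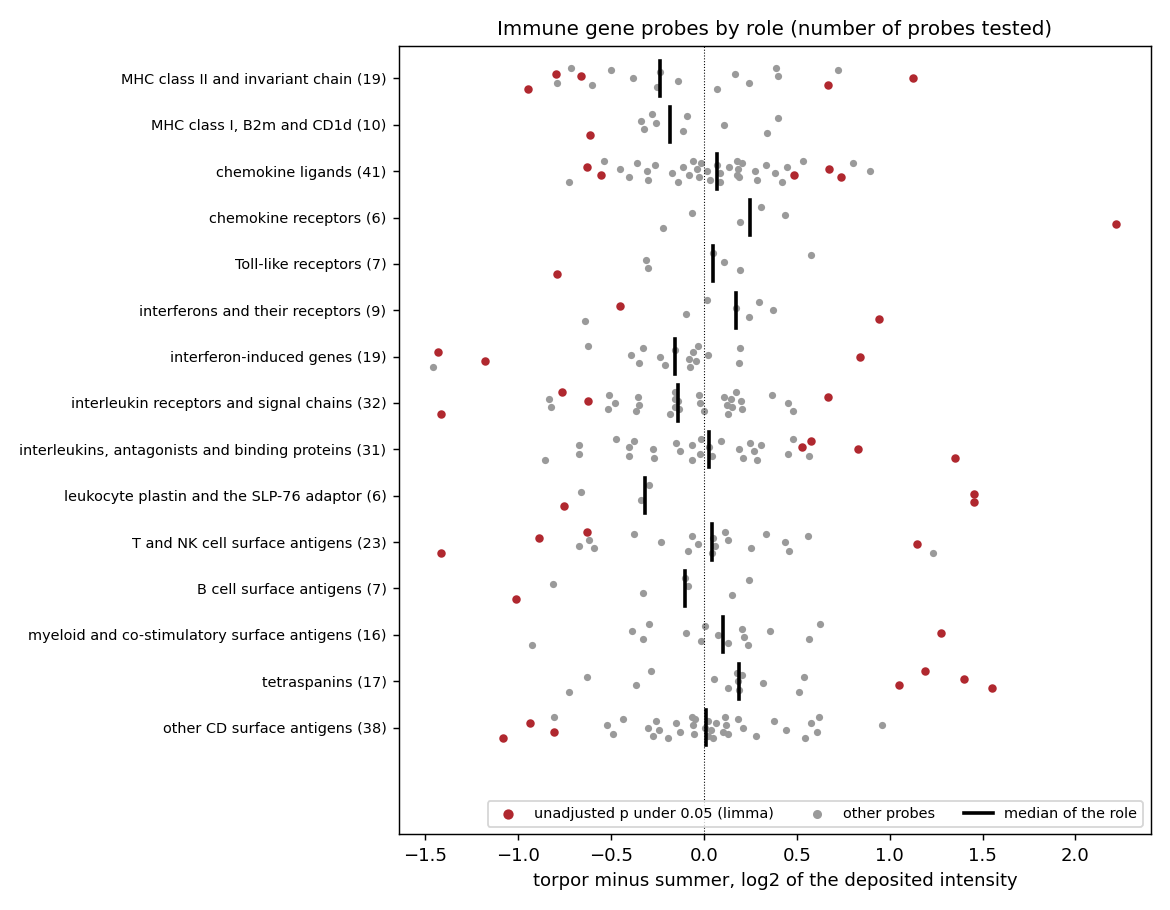
Torpor minus summer difference (log2 of the deposited intensity, horizontal axis) of each of the 281 immune probes tested, in 15 rows by role, with the number of probes per row. Red points have an unadjusted limma p under 0.05, grey points do not, and black bars are medians, which lie between -0.32 and 0.25. Most points lie within 1 unit of 0, and Cxcr4, at 2.22, stands farthest out.

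The plot of differences by role shows a median near 0 in each row. Among chemokine receptors, which guide leukocytes through tissue, 6 genes had 1 probe each and a median difference of 0.25. Cxcr4, the receptor for Cxcl12 that retains leukocytes and progenitors in their niches, was measured on MA07 at signal percentile 99.7. Its log2 levels were 6.20, 5.24, 5.86, 5.76 and 5.69 in torpid animals 1 to 5, against 3.85, 2.20 and 4.54 in summer animals 1 to 3. All torpid animals lay above all summer animals, and the summer animals were the more scattered group. The difference was 2.22 ± 0.44 (SE), or 4.66-fold, with a limma adjusted p of 0.084. Duplicates were 5.58 and 5.80 in torpid animal 5, against 3.26 and 4.44 in summer animal 1 and 2.47 and 1.93 in summer animal 2. The gap between duplicates of a summer RNA was thus smaller than the distance from that animal to the torpid group. Without summer animal 3 the adjusted p was 0.029, at 2.72, whereas with cyclic loess it was 0.11, at 1.43. Without summer animal 2, the lowest animal, the limma adjusted p was 0.058, at a smaller difference of 1.55.

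A human gene entry for CXCR4 on MA11, which the symbol rule misses by its capitals, gave a second reading on the same RNAs. Its levels were 4.62, 3.85, 2.74, 4.11 and 3.70 in torpor, against 2.11, 0.23 and 2.65 in summer. The groups did not overlap, although the lowest torpid and the highest summer animal nearly met. The difference was 2.14 ± 0.51 (SE), with a limma adjusted p of 0.12. Summer animal 2 was the lowest animal on both membranes.

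Cxcr2, a receptor of neutrophil chemokines, had levels of 1.51, 2.08, 1.53, 1.90 and 1.72 in torpor, against 1.35, 1.49 and 1.48 in summer. The groups were separate but close, at a difference of 0.31 ± 0.23 (SE; limma adjusted p 0.63), which cyclic loess between columns turned to -0.0049. Ccr2, the monocyte receptor for Ccl2, differed by 0.44 ± 0.31 (SE) with overlapping groups. Cxcr6, Ccr7 and Ccr1 had differences of 0.19, -0.06 and -0.22.

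Chemokine ligands were represented by 41 probes for 21 genes, with a median difference of 0.071, and at an unadjusted p under 0.05 they held 3 higher and 2 lower probes. Like the counts of the other roles given below, these stand beside 6.39% higher and 5.18% lower among all probes. Ccl6, a macrophage chemokine described in the mouse, was among the brightest spots of MA11 (percentile 99.2). Its levels were 6.76, 6.76, 6.88, 6.72 and 6.63 in torpor, against 7.11, 7.52 and 7.27 in summer. The torpid animals lay close together and below all summer animals. The difference was -0.55 ± 0.21 (SE), with a limma adjusted p of 0.34, and it was nearly lost with quantile normalization, at -0.0032, and with cyclic loess, at -0.088. Cxcl12, the ligand of Cxcr4, had 6 probes of 6 clones, with differences from -0.26 to 0.80 and 0.21 as the smallest unadjusted p. On the MA10 spot that gave 0.80, torpid animal 1 was at 0.60 and the other torpid animals at -2.97 to -1.61. Without torpid animal 1 the difference there was 0.27. Ccl2, which attracts monocytes, had 3 probes from -0.54 to 0.07.

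Ccl9 on MA11 and Ccl27a on MA07 were higher in torpor at an unadjusted p under 0.05, by 0.67 ± 0.28 and 0.74 ± 0.31 (SE), and both had overlapping groups. The other Ccl9 probe gave 0.02, and the other 3 probes of Ccl27a, an epithelial T cell attractant, lay between -0.06 and 0.18. Ccl25 on MA08, which draws developing and gut T cells, was higher by 0.48 with separate groups, and its clone on MA11 gave 0.38. A human CCL25 entry on MA11 gave -0.06. Cxcl11, one of the interferon-induced ligands of Cxcr3, was lower by 0.63 on its single probe. The related Cxcl9 and Cxcl10 had 3 probes each, from -0.40 to 0.03 and from -0.45 to 0.42.

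**Figure D2:**
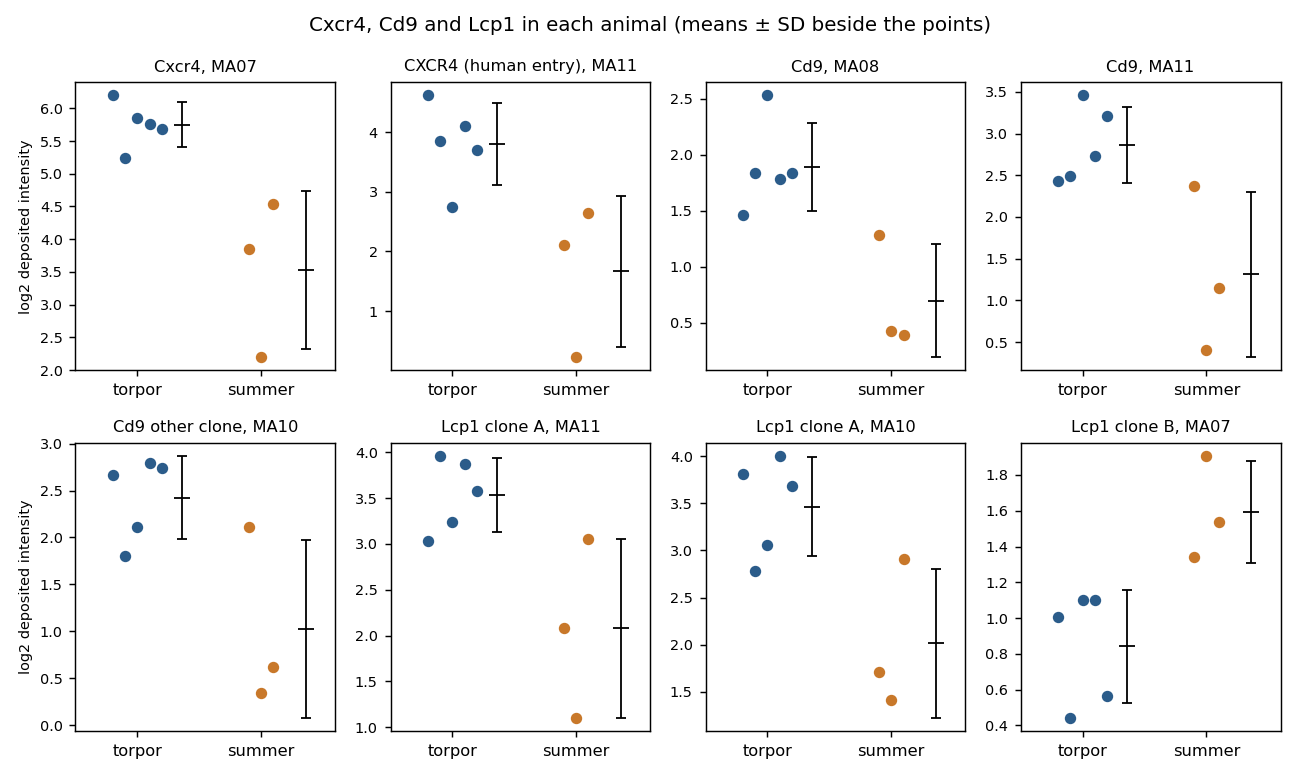
Log2 of the deposited intensity (vertical axes, which differ between panels) of Cxcr4, Cd9 and Lcp1 probes in 5 torpid (blue) and 3 summer (orange) animals, with mean and SD beside each group. Torpid animals lie above summer animals for Cxcr4 on both membranes and for Cd9 on MA08 and MA11. The Lcp1 panels show 1 clone that was higher and another that was lower in torpor.

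MHC class II genes and the invariant chain had 19 probes for 9 genes and a median difference of -0.24, with 8 above 0. At an unadjusted p under 0.05, 2 were higher and 3 lower. H2-Ea, the class II E alpha chain, was read by 2 clones that went opposite ways. The clone at signal percentile 95.6 of MA11 had levels of 2.58, 2.90, 3.13, 3.21 and 3.06 in torpor, against 3.75, 4.04 and 3.96 in summer. All torpid animals lay below all summer animals, by -0.94 ± 0.23 (SE; limma adjusted p 0.13). On MA10 the same clone gave -0.60 ± 0.41 (SE), with overlapping groups. The other clone, on MA11, had levels of 1.25, 1.19, 1.44, 1.25 and 1.49 in torpor, against 0.55, 1.15 and 0.26 in summer. Here all torpid animals lay above the summer animals, at 0.67 ± 0.25 (SE; limma adjusted p 0.32).

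H2-DMa encodes a chain of the chaperone that loads peptides onto class II. On MA08 it had levels of 1.18, 1.65, 1.46, 0.44 and 0.70 in torpor, against -0.20, -0.15 and 0.24 in summer, at 1.12 ± 0.29 (SE; limma adjusted p 0.16). The groups were separate on that spot. The same clone on MA11 gave 0.17 ± 0.27 (SE), and the other 3 H2-DMa probes lay between -0.71 and 0.24. H2-Eb1, the E beta chain, differed by -0.80 ± 0.31 (SE) on MA08 with separate groups, and its other 2 probes by -0.25 and -0.24. On MA08, torpid animal 1, at -1.39, lay far below the other torpid animals, which had -0.32 to -0.04.

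Cd74, the invariant chain that escorts class II molecules, had levels of 1.06, 1.12, 0.22, 0.78 and 0.74 in torpor, against 1.66, 0.86 and 1.81 in summer. The groups overlapped through summer animal 2, and the difference was -0.66 ± 0.29 (SE; limma adjusted p 0.41). The A chains overlapped between the groups. H2-Ab1 had 0.72 ± 0.37 on MA11 (0.43 without summer animal 3) and 0.39 ± 0.47 on MA10 from the same clone, and H2-Aa had 0.07 ± 0.36 (SE).

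Class I molecules, B2m and Cd1d1 had 10 tested probes and a median difference of -0.18, with 3 above 0. B2m, the light chain of every class I molecule, had differences of -0.34, -0.32, -0.11 and -0.09 on 4 probes, all within 2 standard errors of 0. The -0.32 and -0.11 came from 2 very dim MA08 spots of 1 clone, at signal percentiles 0.33 and 3.89. The first had values in 3 torpid and 3 summer animals, the second in 2 and 2. The clearest of these spots, on MA07, had 0.02, -0.58, -0.75, -0.25 and -0.20 in torpor, against -0.12, -0.01 and 0.08 in summer. The groups overlapped because torpid animal 1 lay within the summer range. Cd1d1, which presents lipids to natural killer T cells, differed by -0.61 ± 0.25 (SE) on MA11, and its other probes by -0.28 for the same clone and 0.34 for another. H2-Q1, a class I heavy chain of the Q region, had levels of -1.96, -1.98, -1.15, -0.35 and -1.31 in torpor, against -0.99, -1.06 and -3.19 in summer. The groups overlapped on this dim spot, at 0.40 ± 0.51 (SE), and without summer animal 3, the lowest, the difference was -0.33. The classical heavy chains H2-K1 and H2-D1 had no probe of their own, and a probe that carries both symbols differed by 0.47 ± 0.39 (SE).

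**Figure D3:**
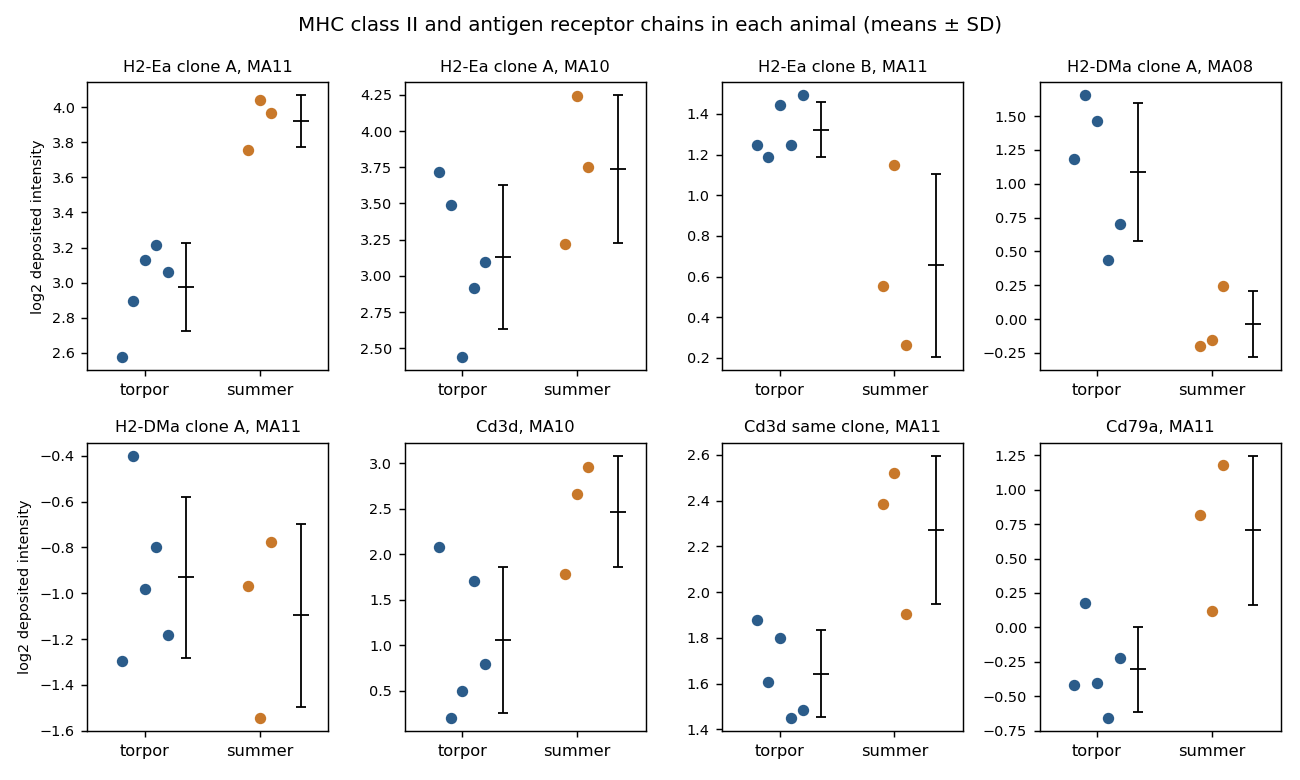
Log2 of the deposited intensity (vertical axes, which differ between panels) of MHC class II and antigen receptor probes in 5 torpid (blue) and 3 summer (orange) animals, with mean and SD beside each group. H2-Ea clone A lies lower and clone B higher in torpor on MA11. The H2-DMa clone separates the groups on MA08 and not on MA11, and Cd3d is lower in torpor on both membranes.

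Toll-like receptors had 7 genes with 1 probe each, all on MA11, and a median difference of 0.050. Tlr3, the endosomal sensor of double-stranded RNA, had levels of 0.64, 0.00, -0.06, -0.17 and 0.09 in torpor, against 1.09, 0.97 and 0.62 in summer. The groups overlapped at torpid animal 1 and summer animal 3 alone. The difference was -0.79 ± 0.25 (SE; limma adjusted p 0.25). Tlr7, the sensor of single-stranded RNA, differed by 0.58 ± 0.34 (SE), and by 0.14 with cyclic loess. Tlr2 and Tlr4, which sense bacterial lipoproteins and lipopolysaccharide, had differences of 0.19 ± 0.35 and 0.11 ± 0.32 (SE), and Tlr6, Tlr5 and Tlr9 lay between -0.31 and 0.05.

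Interferons and their receptors were measured for 3 genes. Ifna1, a type I interferon, had levels of 3.29, 2.89, 2.44, 2.92 and 3.15 in torpor, against 2.16, 2.16 and 1.67 in summer. The groups did not overlap, at 0.94 ± 0.26 (SE; limma adjusted p 0.18), and the difference was 0.58 with quantile normalization and 0.44 with cyclic loess. Ifnar1, a chain of the type I receptor, had 4 probes from -0.64 to 0.24, of which the MA08 probe at -0.45 ± 0.21 (SE) had an unadjusted p under 0.05. Ifngr2, a chain of the interferon gamma receptor, had 4 probes from -0.10 to 0.37.

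The interferon-induced genes had 19 probes for 14 genes, a median of -0.15 and only 4 differences above 0. A probe outside this count, which carries the symbols Mndal and Ifi203, was higher in torpor. It lay at percentile 98.1 of MA11 and differed by 1.56 ± 0.45 (SE; limma adjusted p 0.21). At an unadjusted p under 0.05, 1 of the 19 probes was higher and 2 were lower. Ifitm3, a membrane protein that blocks virus entry, had levels of -0.30, -0.32, -0.45, -0.07 and -0.25 on MA10 in torpor, against 0.12, 1.35 and 1.97 in summer. The torpid animals were tightly grouped below the summer animals, of which animal 1 was the nearest. The difference was -1.43 ± 0.42 (SE; limma adjusted p 0.18), and a different Ifitm3 clone on MA07 gave -0.35 ± 0.24 (SE). The duplicates on MA10 were far apart, at -0.74 and 0.23 in torpid animal 5, against -1.10 and 1.34 in summer animal 1. Without summer animal 1 the limma adjusted p was 0.035, at -1.94, and without summer animal 3 it was 0.47, at -1.02.

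Ifi27 had -1.18 ± 0.45 (SE) on MA10 with separate groups (-0.67 from the second duplicates alone), where another clone gave -0.24 on MA08 and -0.08 on MA11. Ifitm1, a relative of Ifitm3, differed by -0.62 on a spot at percentile 99.6, and Ifitm2 by -0.33. Ifitm10 was higher by 0.84 ± 0.30 (SE) with separate groups, on a dim spot at percentile 8.9 that was empty in torpid animal 2, and by 0.28 with a floor at the 10th percentile. The Ifi35 spot that gave the lowest difference of all had values in only 2 torpid animals.

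Interleukins, their antagonists and binding proteins had 31 probes for 16 genes and a median of 0.026, with 4 probes higher and 0 lower at p under 0.05 before adjustment, where 6.39% of all probes were higher. Il1f6, an interleukin 1 family cytokine now called Il36a, had levels of 5.52, 5.02, 4.53, 5.20 and 5.35 in torpor, against 3.58, 4.66 and 3.08 in summer. The groups overlapped only where torpid animal 3 lay below summer animal 2. The difference was 1.35 ± 0.35 (SE; limma adjusted p 0.16), and without summer animal 2 it was 1.80 with an adjusted p of 0.044. Without summer animal 3 it was 1.01, with a limma adjusted p of 0.36. Il4, the cytokine of type 2 responses, had levels of 2.16, 2.07, 1.50, 2.10 and 2.48 in torpor, against 1.26, 1.40 and 1.02 in summer. The groups did not overlap, at 0.83 ± 0.26 (SE; limma adjusted p 0.23), or 0.48 with cyclic loess. A human IL4 entry on the same membrane gave 0.09.

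Il1rn, the antagonist of the interleukin 1 receptor, differed by 0.53 ± 0.23 (SE) with separate groups, and Il1b by -0.06 ± 0.27 (SE). Il7, a survival factor of lymphocytes, was split between its probes, at 0.57 on MA07 for 1 clone and -0.86 on MA10 and -0.37 on MA11 for another. The gp130-family cytokine Il6 and the regulatory cytokine Il10 had no single-symbol probe.

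Interleukin receptors and signal chains had 32 probes for 23 genes and a median of -0.14, with 1 higher and 3 lower at p under 0.05 before adjustment. Il7r, the interleukin 7 receptor of lymphocytes, was at percentile 99.4 of MA11, with levels of 6.66, 7.37, 7.29, 6.76 and 7.17 in torpor, against 7.66, 8.28 and 7.49 in summer. The groups did not overlap, at -0.76 ± 0.27 (SE; limma adjusted p 0.30). The difference was -0.21 with quantile normalization and -0.20 with cyclic loess. A dim Il7r clone on MA10, empty in 3 torpid animals, gave -0.35 ± 0.62 (SE).

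Il3ra, the interleukin 3 receptor alpha chain, differed by -1.41 ± 0.48 (SE) on MA10, where its levels were -0.65, 1.46, 0.95, 0.47 and 0.40 in torpor, against 1.09, 2.67 and 2.05 in summer. The groups overlapped at summer animal 1, and 2 other clones gave -0.14 and 0.15. Il15ra, which presents interleukin 15, was higher by 0.67 ± 0.25 (SE) with overlapping groups, and by 0.24 with cyclic loess. A human IL15RA entry on the same membrane gave -0.04. Il6st, the gp130 chain shared by interleukin 6 family receptors, had 3 clones from -0.83 to 0.15, none at an unadjusted p under 0.05. Il1rapl2, a relative of the interleukin 1 receptor accessory protein that is known from neurons, was lower by 0.63.

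T and natural killer cell antigens had 23 probes for 15 genes and a median of 0.046, with 1 higher and 3 lower at p under 0.05 before adjustment, where 5.18% of all probes were lower. The 3 lower ones were 2 spots of a Cd3d clone and a Cd3e probe, so 2 genes, both chains of the T cell receptor complex. Cd3d had levels of 2.08, 0.20, 0.49, 1.71 and 0.79 on MA10 in torpor, against 1.78, 2.67 and 2.95 in summer. On MA11 the same clone had 1.88, 1.61, 1.80, 1.45 and 1.48 in torpor, against 2.38, 2.52 and 1.91 in summer. Torpid animal 1 lay within the summer range on MA10, and the groups were separate on MA11. The differences were -1.41 ± 0.47 and -0.63 ± 0.24 (SE), with limma adjusted p of 0.25 and 0.33.

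Cd3e, another chain of the complex, had levels of 3.34, 2.93, 3.08, 2.74 and 3.60 in torpor, against 4.71, 3.09 and 4.29 in summer. Summer animal 2 lay among the torpid animals, and the difference was -0.89 ± 0.35 (SE; limma adjusted p 0.35). Without summer animal 1 it was -0.55, without summer animal 2 it was -1.36, and from the second duplicates alone it was -0.45. Cd3g differed by -0.62 and -0.59 on 2 spots of a clone with standard errors of 0.67 and 0.60, and Cd247, the zeta chain, by -0.67 and 0.06 for 2 clones. A human CD3E entry gave -0.28 and a human CD3G entry 0.02. Cd4, the co-receptor of helper T cells, had 3 probes from -0.03 to 0.56 (the last 0.067 without summer animal 2), and Cd8a had no single-symbol probe.

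Cd2, an adhesion molecule of T and natural killer cells, had levels of 4.24, 4.10, 3.44, 3.71 and 4.59 in torpor, against 2.87, 3.22 and 2.51 in summer. The groups did not overlap, at 1.15 ± 0.29 (SE; limma adjusted p 0.15). A second Cd2 clone on the same membrane gave -0.23 ± 0.27 (SE), so the 2 readings of this gene did not match. Cd52 and Cd96 were also higher in torpor with separate groups, by 0.33 and 1.23, the second on a spot with 1 empty torpid and 1 empty summer animal.

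B cell antigens had 7 probes for 5 genes and a median of -0.098. Cd79a, a signalling chain of the B cell receptor, had levels of -0.42, 0.18, -0.40, -0.66 and -0.22 in torpor, against 0.82, 0.12 and 1.18 in summer. Only torpid animal 2 and summer animal 2 crossed over. The difference was -1.01 ± 0.29 (SE; limma adjusted p 0.20). Its partner Cd79b differed by -0.33 and 0.24 on 2 spots of 1 clone, and Cd72 by -0.81 (-0.44 without torpid animal 4) and -0.10.

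Myeloid and co-stimulatory antigens had 16 probes for 10 genes and a median of 0.10. Cd68, the lysosomal macrophage marker, had levels of 0.09, 0.31, 0.60, 0.69 and 1.11 in torpor, against 0.05, 0.31 and 0.71 in summer. The summer values fell within or just below the torpid range, and the difference was 0.20 ± 0.28 (SE; limma adjusted p 0.82). Cd14, the lipopolysaccharide co-receptor, had 3 probes at -0.92, -0.29 and 0.24. Cd302, a lectin receptor, differed by 1.28 ± 0.36 (SE; limma adjusted p 0.19) on MA11, where torpid animal 3, at 2.44, lay below summer animal 2, at 2.57. With cyclic loess the difference was 0.77. A second Cd302 clone on MA08 gave 0.01 ± 0.18 (SE). Cd83, Cd80 and Cd86, which mark or co-stimulate in antigen presentation, lay between 0.08 and 0.57.

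Tetraspanins, membrane organisers found on leukocytes and many other cells, had 17 probes for 6 genes and a median of 0.19. They held 13 differences above 0, 4 probes higher and 0 lower at p under 0.05 before adjustment, where 6.39% of all probes were higher. The 4 were 3 spots of Cd9 and 1 of Cd81, so 2 genes. Cd9 was higher on all 3 of its spots. On MA08 it had 1.47, 1.84, 2.53, 1.79 and 1.83 in torpor, against 1.28, 0.43 and 0.39 in summer. On MA11 the same clone had 2.43, 2.49, 3.46, 2.73 and 3.21 in torpor, against 2.37, 0.41 and 1.15 in summer. The groups were separate on both spots, with summer animal 1 just under the lowest torpid animal.

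A second Cd9 clone, on MA10, had 2.67, 1.80, 2.12, 2.80 and 2.74 in torpor, against 2.11, 0.35 and 0.62 in summer. Summer animal 1 lay within the torpid range there. The differences were 1.19 ± 0.29 on MA08, 1.55 ± 0.40 on MA11 and 1.40 ± 0.45 on MA10 (SE), with limma adjusted p of 0.13, 0.16 and 0.22. Without summer animal 1 they were 1.48, 2.08 and 1.94, with adjusted p of 0.045, 0.021 and 0.048. Without summer animal 2 the differences were 1.06 on MA08 and 1.10 on MA11, with limma adjusted p of 0.17 and 0.24. Because the 3 spots were hybridised with the same RNAs, they repeat the reading and not the animals.

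Cd81, a tetraspanin of the B cell co-receptor, had levels of 3.00, 2.91, 3.21, 3.36 and 2.87 on MA11 in torpor, against 2.22, 1.29 and 2.54 in summer. The groups did not overlap, at 1.05 ± 0.29 (SE; limma adjusted p 0.18). The difference was 0.68 with quantile normalization, 0.55 with cyclic loess and 0.69 without summer animal 2. The same clone on MA08 gave 0.32 ± 0.25 and another on MA10 0.19 ± 0.44 (SE). Cd63, the lysosomal and exosomal tetraspanin, had 3 clones at 0.54, 0.21 and -0.63. Cd53, found on leukocytes, ran from -0.73 to 0.51 over 3 probes, and its extremes were 2 spots of 1 clone.

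Lcp1, the actin-bundling plastin of leukocytes, had 5 probes of 3 clones that did not give 1 direction. A clone read on MA10 and MA11 was higher by 1.45 on both. Its MA11 levels were 3.03, 3.96, 3.23, 3.87 and 3.58 in torpor, against 2.08, 1.10 and 3.05 in summer, so that the groups touched at summer animal 3. The limma adjusted p was 0.17 on MA11 and 0.20 on MA10, and on MA11 it was 0.042, at 1.94, without summer animal 3, but 0.25, at 0.96, without summer animal 2 and 0.48, at 0.95, with cyclic loess. A clone on MA07 had 1.01, 0.44, 1.10, 1.10 and 0.57 in torpor, against 1.34, 1.90 and 1.54 in summer. All torpid animals lay below the summer animals there, at -0.75 ± 0.23 (SE; limma adjusted p 0.24). The third clone gave -0.66 on MA10 and -0.29 on MA11.

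Lcp2, the SLP-76 adaptor of T cell receptor signalling, had 0.47, 0.71, 0.51, 0.67 and 0.48 in torpor, against 0.88, 0.90 and 0.94 in summer. The groups were separate and narrow, at -0.34 ± 0.16 (SE; limma adjusted p 0.44). The 38 probes of the other CD antigens, for 17 genes, had a median of 0.014, with 0 higher and 3 lower at p under 0.05 before adjustment. These were Cd44, the hyaluronan receptor, at -1.08 ± 0.38, Cd99, an adhesion molecule, at -0.93 ± 0.36, and Cd320, the transcobalamin receptor, at -0.81 ± 0.35 (SE).

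The Cd44 spot was dim and empty in torpid animals 1 and 2, its difference was -0.69 without torpid animal 5, and the other 4 Cd44 clones lay between -0.15 and 0.19. Cd99 had levels of 1.61, 0.88, 1.36, 1.12 and 1.05 in torpor, against 2.05, 2.02 and 2.34 in summer, with no overlap. Cd320 had levels of -0.19, -0.29, 0.08, -0.12 and -0.29 in torpor, against 0.72, 0.60 and 0.61 in summer, also with no overlap. Its second clone gave 0.10. Cd47, the signal that restrains phagocytosis, had 4 clones from -0.19 to 0.58, and Cd34, found on progenitors and endothelium, had 3 from -0.06 to 0.96.

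Probes of the same gene often disagreed. Of the 69 genes with several tested probes, 10 had all differences above 0, 15 all below 0 and 44 had both signs, and in 15 genes the probes spanned more than 1 unit. A clone spotted in more than 1 place gave 38 pairs of readings for 33 genes. These pairs had the same sign in 25 cases, a median gap of 0.39 and a Pearson correlation of 0.61, as a description of spots that share animals and RNA. The widest gap was 1.24, for Cd53 on MA10 and MA11. Only 3 pairs had an unadjusted p under 0.05 on both spots, those of Cd9, Lcp1 and Cd3d. Between different clones of a gene, 61 of 132 pairs had the same sign, with a median gap of 0.48.

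**Figure D4:**
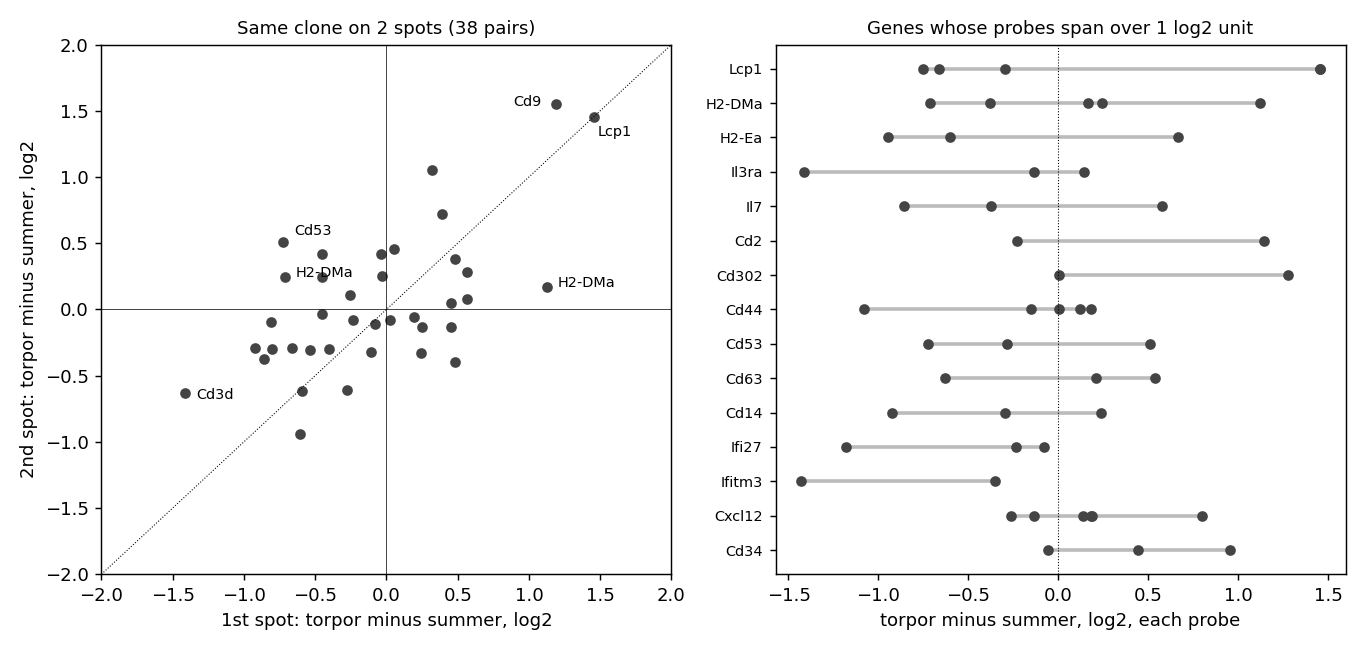
Left, torpor minus summer difference (log2) on the 1st and 2nd spot of the same clone for 38 pairs, with the dotted line of equality. Right, the difference of each probe (points, log2) in the 15 genes whose probes span more than 1 unit. Cd9, Lcp1 and Cd3d repeat between spots of a clone, whereas the probes of Lcp1, H2-DMa and H2-Ea lie on both sides of 0.

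The 33 human gene entries on MA11 that fit the rule apart from their capitals had a median difference of 0.006, with 1 higher and 4 lower at p under 0.05 before adjustment. Among all probes, 6.39% were higher and 5.18% lower at that level. CXCR4, described above, was the higher one. CXCL14, IL1R2, IL7 and CXCL10 were lower, by 0.77, 0.67, 0.67 and 0.64. Of the 24 that could be set beside a mouse probe of the same name, 15 had the sign of the mouse gene's median difference. CXCL14 was one, since the 3 mouse Cxcl14 probes, of this chemokine of epithelia and fat, ran from -0.73 to -0.01.

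Genes that act with these in the same pathways but lie outside the symbol rule also gave 0 probes past the limma adjusted p of 0.05. Antigen processing genes had 37 probes for 12 of 19 listed genes and a median of 0.030, with 5 higher and 3 lower at p under 0.05 before adjustment. The chaperone Pdia3, which helps load class I, was lower by 1.35 on MA10 and 0.88 on MA11, and Canx (calnexin) was higher by 0.83 on MA07 and 0.84 on MA11, each with separate groups. Both also fold other glycoproteins. Toll and interferon signal genes had 76 probes for 33 of 42 genes and a median of -0.11, with 7 higher and 7 lower. Leukocyte signalling genes had 55 probes for 28 of 43 genes and a median of -0.056, with 2 higher and 4 lower. Among all probes, 6.39% were higher and 5.18% lower at the same level.

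Markers of single cell types were read beside these values, and none of their probes passed the limma adjusted p of 0.05. T and natural killer cell markers had 13 probes for 7 of 11 genes and a median difference of -0.38. The median level of that list was 0.20 to 1.88 in torpid animals and 1.78 to 1.86 in summer animals. B cell markers had 11 probes for 7 of 8 genes and a median of -0.33, at levels of -0.27 to 0.18 in torpid and 0.12 to 0.26 in summer animals. Most of these markers are themselves among the immune probes, so they are no second reading. Outside the immune probes, the B cell markers Ms4a1 and Btk differed by -0.97 ± 0.31 and 1.41 ± 0.58 (SE). The Btk spot was very dim, at percentile 0.02. Macrophage and dendritic cell markers had 16 probes for 8 of 15 genes and a median of -0.009, and neutrophil markers 6 probes for 3 of 8 genes and a median of -0.024. Of the neutrophil probes, 2 were lower at p under 0.05 before adjustment, where 5.18% of all probes were. Both were of Csf3r, at -0.75 on MA07 and -0.60 on MA11. Endothelial markers had a median of 0.15 on 12 probes, erythroid markers -0.28 on 3 and skeletal muscle markers -0.38 on 7. The part of any of these cell types in the values above was not tested.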

How the data were processed

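Spot intensity was deposited by the authors for 44 columns, 11 on each of 4 membranes, from total RNA labelled with 33P. The deposited intensity values already have a column median of 1. How spots were read and background was treated is not given in the sources used here. Values were taken to log2 with empty cells as missing, duplicates of an RNA were averaged on that scale, and limma 3.58.1 (R 4.3.3) was run per membrane, with lmFit and eBayes, wherever both groups had values of 2 or more animals. Tests were two-sided. Benjamini-Hochberg adjustment ran over all 37848 probes tested, at 0.05. The fit was tested on simulated data. The design text gives 5 and 3 squirrels, and p-values measure the spread between the values of these animals. That spread holds measurement error as well as differences between animals, and the 2 were not separated. Symbols come from GEO's platform annotation, which can be old, and name the mouse gene. An unnamed probe may still belong to an immune gene.

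The members, roles, pathway and marker lists were chosen with earlier results of these data known. Named probes were any past the adjusted p of 0.05 (there were none), the 12 with the smallest p among those with separate groups, the 3 genes with the smallest p in each role and a fixed set of 33 genes, of which 26 had a probe of their own. Every probe of a named gene was summarised, and other probes at an unadjusted p under 0.05 or with separate groups were added after their values were seen. Alternatives covered scaling, floors, filters, the variance model, duplicates, a replicate block, a membrane and each animal left out. Adding the 33 human gene entries was chosen after seeing the data.

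Same-numbered torpid and summer animals had correlations of deviations from -0.063 to 0.052, so the numbers were not taken to pair them.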

Additional observations from a re-analysis of the deposited data

Results flagged for a closer look

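In 3 of the 57 named probes with values in all 5 torpid animals, 1 torpid animal stood apart by Dixon's criterion, the gap to its nearest neighbour divided by the group's range (critical value 0.71). Chance gives about 1 in 20. For Tlr4 on MA11 the ratio was 0.8125, with torpid animal 4 at -0.15 and the others from -0.55 to -0.48. For H2-Eb1 on MA08 it was 0.7932, with torpid animal 1 at -1.39 and the others from -0.32 to -0.04. For Cd72 on MA10 it was 0.7402, with torpid animal 4 at -1.61 and the others from -0.02 to 0.54.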

How the results depend on the processing

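No immune probe passed the adjusted p of 0.05 in the fit reported, and the count was 1 with quantile normalization, 1 with the first duplicate alone and 0 to 4 with 1 animal left out. The probe was Cxcr4 in both of the first cases (adjusted p 0.034 and 0.039). The 4 came without summer animal 1 (3 Cd9 probes and Ifitm3), and there were 1 without summer animal 2 (Il1f6) and 2 without summer animal 3 (Cxcr4 and Lcp1). Over all probes the count moved as well, between 13 with a floor at the 10th percentile and 347 without summer animal 1, against 117 as reported. The number at an unadjusted p under 0.05, 42 as reported, stayed between 31 and 48. As a share it was 11.1% to 19.3% of the immune probes tested, against 8.38% to 13.9% of all probes. The immune share was the higher in each alternative. It was 13.2% against 13% without summer animal 2, and 19.3% against 13.9% for probes with a mean above the 25th percentile. The alternatives reuse the same animals. The number with separate groups, 27 as reported, was 31 to 51 with 1 animal left out, where fewer animals have to be separated. The same count over all probes was not made for any alternative, so these counts have no background beside them. The median difference was 0.046 for probes with a mean above the 25th percentile, where the median of all probes was 0.017. With the animal number as a replicate block, a number that was not found to pair animals, 0 immune probes passed. The median was -0.0048 there and 26 had separate groups. In that fit 35 (12.8%) had an unadjusted p under 0.05, where 8.38% of all probes did. Of 1098 recomputed differences of the 59 named probes, 17 reversed, in 7 probes, and all but that of Cxcr2 were within 1 standard error of 0 in the fit reported. The cause was not tested. Tlr2 was -0.1514 with quantile normalization, -0.3171 with cyclic loess, -0.0188 with the first duplicate alone and -0.0287 with the replicate block. Cxcr2 was -0.0049 with cyclic loess. H2-Aa was -0.0222 and Tlr4 -0.0705 with the first duplicate alone, and Il1b was 0.0562 with the second. H2-Aa was -0.0518 and Cd68 -0.0227 with the replicate block. With 1 animal left out, H2-Aa ran from -0.3972 (without summer animal 1) to 0.5213, Tlr2 from -0.2583 (summer animal 3) to 0.4341, Tlr4 from -0.2080 (summer animal 3) to 0.5679, H2-Q1 from -0.3260 (summer animal 3) to 0.7746 and Il1b from -0.2977 (summer animal 3) to 0.1172. Dim probes have the most empty cells, and no signal over background could be set from the values used here.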
